A study of Mus musculus with 12 samples.

Results

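The genes described here were 10 components of TGF-β signalling: the ligand genes Tgfb1, Tgfb2 and Tgfb3, the activin subunit gene Inhba, the receptor genes Tgfbr1 and Tgfbr2, and the latent TGF-β binding protein (LTBP) genes Ltbp1, Ltbp2, Ltbp3 and Ltbp4. They were taken by gene name, 1 row each, from a table of 29862 genes, and all 10 were among the 18703 genes that passed edgeR's filter on low counts. RNA was sequenced from hTERT-immortalized mandibular fibrochondrocytes, established from primary condylar cartilage cells of C57BL/6J pups 10 to 14 days old. All 12 libraries came from this immortalized background. The control line was 1 sorted single-cell clone, and the NG2|EDmut line was 1 clone in which CRISPR/Cas9 had truncated the ectodomain of NG2/CSPG4 within the stretch that binds type VI collagen. Both lines were cultured in serum-supplemented medium (AMEM with FBS) and in serum starvation conditions (Opti-MEM), which gave 4 groups of 3 biological replicates. The medium changed together with the serum, so in the starvation comparisons the effects of these changes cannot be told apart. With 1 clone per line, an effect of the truncation and any other difference between the clones cannot be told apart. None of the sources used here says whether replicates came from separate cultures, so the p-values measure the spread between these libraries, which may be technical.

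TGF-β is made as a precursor that is cut into the mature growth factor and a propeptide that stays wrapped around it and keeps it latent. The LTBPs hold this latent complex and tether it to fibrillin and fibronectin in the matrix, and integrins or proteases release the growth factor there. The free ligand binds TGFBR2, which recruits and phosphorylates TGFBR1, and the receptor pair then phosphorylates SMAD2 and SMAD3. Activin A, the dimer of the Inhba product, reaches the same SMADs through activin receptors and is not held latent by the LTBPs. In condylar and other cartilage, TGF-β signalling is known for its part in chondrogenesis and in upkeep of the fibrous layer.

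Among the 10 genes the lines differed most in Ltbp2, Ltbp3, Ltbp4 and the ligand Tgfb3, whereas the response to serum starvation differed between the lines for Inhba. To give the sequence context of these genes, their promoters were taken from RefSeq (GRCm38.p6, 250 bases before to 50 bases after a transcription start), where 9 of the 10 genes, all but Tgfb3, had 13 windows in all. Ltbp3 and Ltbp4, which moved in opposite directions between the lines, are shown first, followed by Inhba and Tgfb2, the genes of the list with the largest differences between the lines in starvation response, of which Inhba passed the test. The Ltbp3 window is chr19:5740650-5740949 on the plus strand and the Ltbp4 window, 1 of its 3, is chr7:27337563-27337862 on the minus strand. The Inhba window is chr13:16011601-16011900 on the plus strand and the Tgfb2 window is chr1:186705940-186706239 on the minus strand. Capitals mark matches, on either strand, to the motifs searched:
Ltbp3: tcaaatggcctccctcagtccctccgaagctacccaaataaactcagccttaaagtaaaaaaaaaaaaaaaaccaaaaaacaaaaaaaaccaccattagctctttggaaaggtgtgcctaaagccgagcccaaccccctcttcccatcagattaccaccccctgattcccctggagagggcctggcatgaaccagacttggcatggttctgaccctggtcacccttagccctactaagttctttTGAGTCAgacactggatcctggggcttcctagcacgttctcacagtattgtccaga
Ltbp4: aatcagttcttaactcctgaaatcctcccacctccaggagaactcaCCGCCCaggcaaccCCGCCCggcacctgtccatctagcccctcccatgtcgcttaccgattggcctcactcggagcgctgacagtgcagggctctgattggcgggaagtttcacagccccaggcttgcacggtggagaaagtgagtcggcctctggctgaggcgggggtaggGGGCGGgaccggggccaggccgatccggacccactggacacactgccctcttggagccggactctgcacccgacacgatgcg
Inhba: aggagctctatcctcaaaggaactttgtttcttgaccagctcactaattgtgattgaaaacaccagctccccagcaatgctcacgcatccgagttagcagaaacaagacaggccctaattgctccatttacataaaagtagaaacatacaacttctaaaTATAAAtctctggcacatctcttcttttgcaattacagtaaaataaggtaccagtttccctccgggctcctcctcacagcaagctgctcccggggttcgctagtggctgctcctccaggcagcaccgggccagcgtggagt
Tgfb2: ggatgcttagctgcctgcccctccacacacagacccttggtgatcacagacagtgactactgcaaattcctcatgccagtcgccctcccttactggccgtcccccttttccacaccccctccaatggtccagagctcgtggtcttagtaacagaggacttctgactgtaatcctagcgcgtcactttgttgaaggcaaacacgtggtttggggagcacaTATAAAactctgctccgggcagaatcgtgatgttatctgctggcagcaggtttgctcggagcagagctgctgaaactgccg

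The Ltbp3 window held 1 AP-1 motif (TGANTCA, found in 7.81% of all 32851 promoter windows of this length), which began 6 bases before the start site. The Ltbp4 window held GC boxes (GGGCGG, 35.7% of all windows) and none of the other motifs. Inhba and Tgfb2 each held 1 TATA motif (TATAAA, 13.6% of all windows), 91 bases before the start in Inhba and 31 bases before it in Tgfb2. No window of the 9 genes held the SMAD palindrome (GTCTAGAC, 0.213% of all windows), the TEAD motif (GGAATG, 14.7%) or the CArG box (1.63%), and the SMAD GC element (GGCGCC, 11.9%) was found for Tgfbr1 and in the other windows of Ltbp4. GC boxes were also found for Tgfb1, Tgfbr1 and Ltbp2. The motifs were searched on both strands, matches to different motifs did not overlap, and a match is letters in a window, with no binding measured.

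The deposited values were an estimated count and an FPKM value per gene and library, with totals of 60277881 to 77172479 estimated counts per library. Levels below are CPM, estimated counts relative to the TMM-scaled library total, except where levels of different genes are set side by side, for which the deposited FPKM, which divides by transcript length, was used. Control serum-supplemented replicate 1 stood apart from its group. Its median absolute difference from the other 2 replicates was 0.45 and 0.50 in log2 CPM. The value was 0.29 between those 2 and 0.13 to 0.35 in the other groups. For the 10 genes each result is therefore also given without this library where a call changes. For the gene lists only some of the counts that this library moves are given. Ribosomal RNA took 0.490% to 4.82% of the totals. Cspg4, the edited gene, was at 84.2 to 178 CPM in control cells in serum and 151 to 251 CPM in NG2|EDmut cells in serum, at 53.9 to 102 and 202 to 251 CPM under starvation, and such a whole-gene value does not check the truncation. Among 12 fibrochondrocyte and mesenchyme markers, summed at 40609 to 54437 CPM per library, Col1a1 and Col1a2 dominated, Sox9 was at 18.8 to 49.2 CPM and Col2a1 at 9.68 to 46.9 CPM. The cartilage markers Acan (at most 1.34 CPM) and Prg4 (at most 2.17 CPM) were nearly absent in all libraries. Of the 6 macrophage markers, Lyz2 differed between the lines (37.2 to 108 CPM in control and 5.71 to 16.5 CPM in NG2|EDmut cells), which brought the summed list to 40.7 to 116 and 8.23 to 20.3 CPM, while the leukocyte marker Ptprc did not exceed 0.143 CPM and the macrophage marker Adgre1 did not exceed 0.371 CPM. Csf1r (0.989 to 3.25 CPM) and Cd68 (0.704 to 3.89 CPM) were low but present in all libraries and overlapped between the lines. Itgam did not exceed 0.382 CPM. The part of the Sox9, Col2a1, Scx and Lyz2 differences in the results was not tested. Endothelial markers summed to at most 1.07 CPM, skeletal muscle markers to at most 2.73, epithelial markers to at most 6.66 and platelet markers to at most 8.68. In bulk RNA, fewer cells making a transcript and less of it per cell cannot be told apart.

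**Figure D1:**
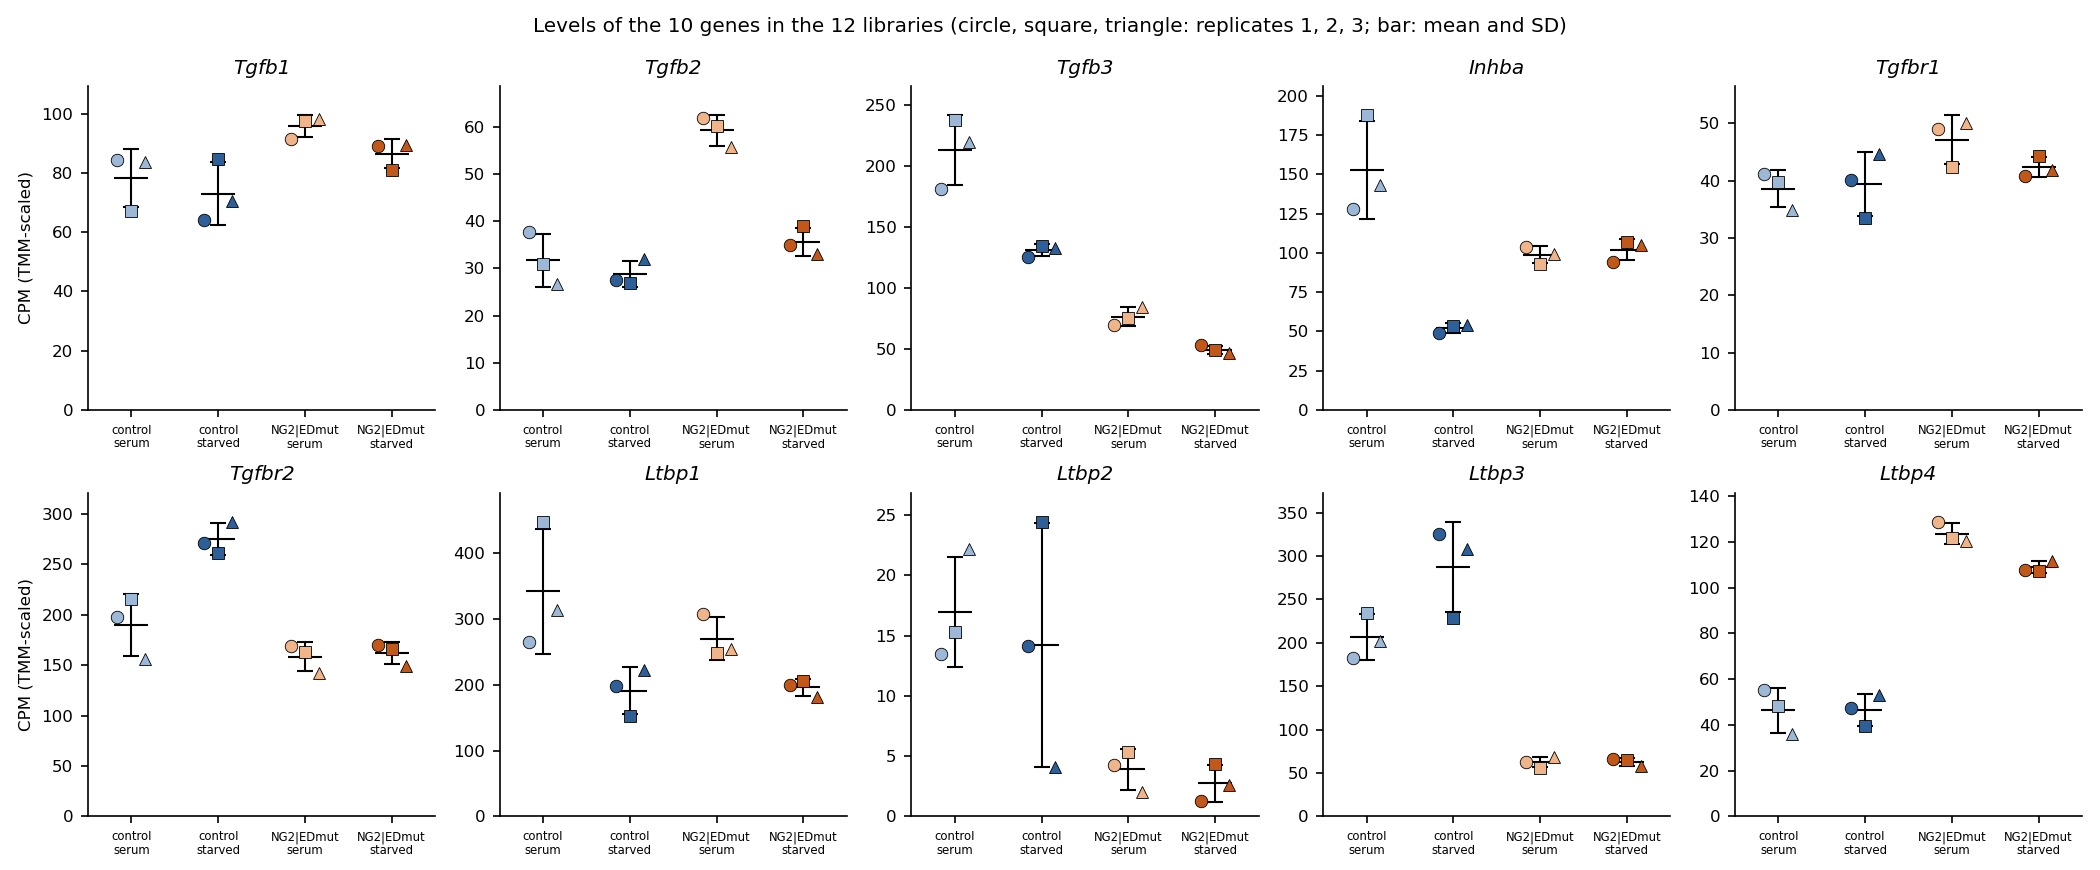
Levels of the 10 genes in the 12 libraries, in TMM-scaled CPM on a linear axis from 0. Symbols are replicates (circle 1, square 2, triangle 3) and the bars give mean and SD per group. Tgfb3 and Ltbp3 are lower and Ltbp4 is higher in every NG2|EDmut library than in any control library, and Inhba is lowest in the 3 starved control libraries (48.8 to 54.1 CPM).

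Between the lines in serum, 6 of the 10 genes passed the test (Benjamini-Hochberg adjusted p under 0.05 in edgeR's quasi-likelihood fit), against 31.5% of all genes tested. Tgfb2 and Ltbp4 rose in NG2|EDmut cells, as 15.4% of all genes did, and Tgfb3, Inhba, Ltbp2 and Ltbp3 fell, as 16.2% did. A change of 1 or more on the log2 scale was called for 4 of the 10, against 14.5% of all genes. The groups did not overlap for 8 of the 10, against 41.9% of all genes. Under starvation 6 genes passed again, against 38% of all genes: Inhba and Ltbp4 rose (17.9% of all genes) and Tgfb3, Tgfbr2, Ltbp2 and Ltbp3 fell (20.1%). Here 4 changed by 1 or more on the log2 scale, against 18.3% of all genes, and 6 of 10 had groups without overlap, against 56.8%. The median log2 fold change over the 10 genes was -0.30 in serum and 0.07 under starvation, beside -0.03 and -0.02 over all genes tested. Its size without regard to sign had a median of 0.77 in serum and 0.87 under starvation, beside 0.49 and 0.54 over all genes.

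**Figure D2:**
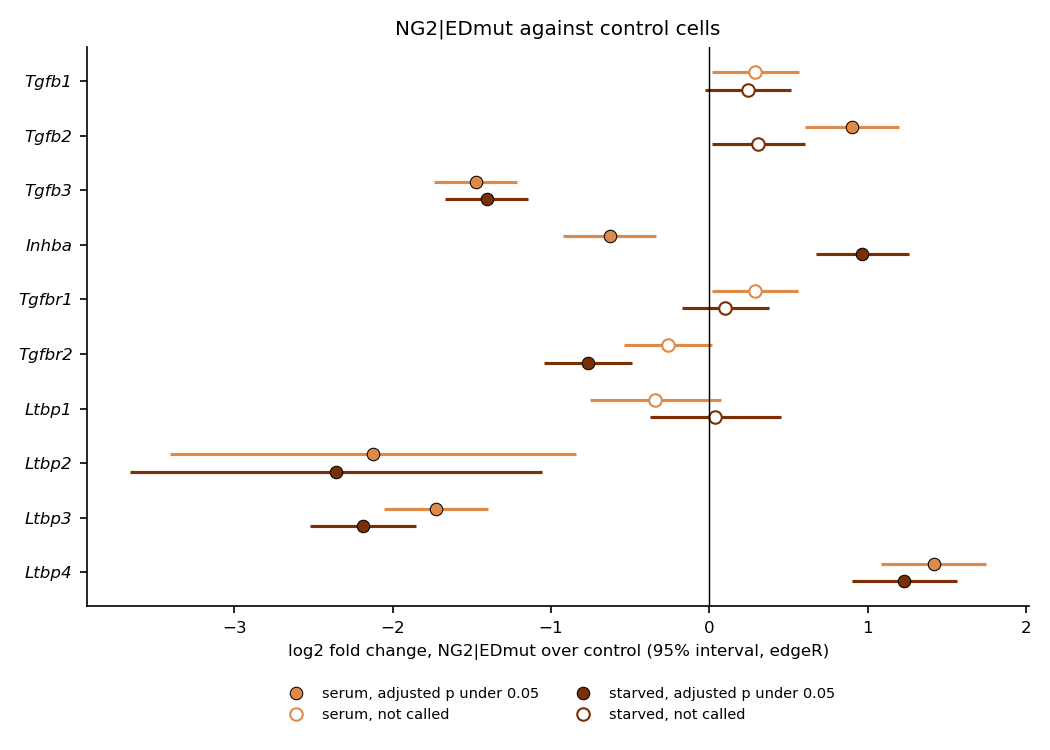
Log2 fold change of NG2|EDmut over control cells for each gene, in serum (light) and under starvation (dark), with 95% intervals from edgeR, filled where the adjusted p is under 0.05. Tgfb3, Ltbp2 and Ltbp3 lie to the left and Ltbp4 to the right in both conditions, and Inhba changes side from -0.63 in serum to 0.96 under starvation.

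Tgfb3 (ENSMUSG00000021253, chromosome 12, 86056745 to 86079041, minus strand; all spans are those of the deposited table and equal GENCODE M21 on GRCm38) encodes the TGF-β3 isoform. In serum it was at 182, 238 and 219.8 CPM in the 3 control libraries and at 69.6, 75.2 and 84.8 CPM in the NG2|EDmut libraries. Every control library thus lay above every NG2|EDmut library. The means were 213 ± 28.7 and 76.6 ± 7.69 CPM (SD, n = 3), a 2.78-fold fall (log2 fold change -1.48, SE 0.12, adjusted p = 4.88e-06). Under starvation Tgfb3 was at 125, 135 and 133 CPM in control and 53.0, 49.1 and 46.4 CPM in NG2|EDmut cells, again without overlap, and fell by 1.41 on the log2 scale (SE 0.12, adjusted p = 3.57e-06). Both calls held under each of the 23 alternative settings, each single library left out included.

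Tgfb2 (ENSMUSG00000039239, chromosome 1, 186622792 to 186705989, minus strand), the gene of the TGF-β2 isoform, moved the other way in serum. It was at 37.7, 31.0 and 26.6 CPM in control and at 61.8, 60.3 and 55.7 CPM in NG2|EDmut libraries, again without overlap. The mean rose from 31.8 ± 5.58 to 59.3 ± 3.19 CPM (SD, n = 3), 1.87-fold (log2 fold change 0.90, SE 0.14, adjusted p = 0.000418). Under starvation the levels were 27.5, 26.9 and 32.0 CPM in control and 34.9, 39.0 and 33.2 CPM in NG2|EDmut cells. These groups lay close together without overlap, and the log2 fold change of 0.31 (SE 0.14, adjusted p = 0.0939) did not pass the test. It passed with control serum replicate 1 left out (0.31, adjusted p = 0.0300) and with control starved replicate 3 left out (0.44, adjusted p = 0.0429).

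Tgfb1 (ENSMUSG00000002603, chromosome 7, 25687002 to 25705077, plus strand), the gene of the TGF-β1 isoform, did not pass the test in either condition. In serum its levels were 84.5, 67.0 and 83.6 CPM in control and 91.6, 97.5 and 98.2 CPM in NG2|EDmut cells. The groups did not overlap, yet the log2 fold change was 0.29 with a 95% interval of 0.02 to 0.56 and an adjusted p of 0.101. Under starvation the levels were 64.0, 84.7 and 70.4 CPM in control and 89.2, 80.9 and 89.4 CPM in NG2|EDmut cells, which overlapped (log2 fold change 0.24, interval -0.03 to 0.52, adjusted p = 0.150). Control starved replicate 2 was the high control value, and without it the log2 fold change was 0.37 (adjusted p = 0.0333).

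Inhba (ENSMUSG00000041324, chromosome 13, 16011851 to 16031621, plus strand) encodes the βA subunit that pairs into activin A. In serum it was at 128, 187 and 143 CPM in control and 104, 93.0 and 99.2 CPM in NG2|EDmut libraries. All 3 control values were the higher ones, and the mean fell from 153 ± 31.0 to 98.7 ± 5.47 CPM (SD, n = 3; log2 fold change -0.63, SE 0.13, adjusted p = 0.00384). Under starvation the order was turned: 48.8, 53.6 and 54.1 CPM in control against 94.2, 107 and 105 CPM in NG2|EDmut libraries. The mean rose from 52.2 ± 2.98 to 102 ± 6.69 CPM (SD, n = 3), 1.95-fold (log2 fold change 0.96, SE 0.13, adjusted p = 0.000147). The antisense gene B230303A05Rik, which overlaps Inhba, did not exceed 0.315 CPM. None of the sources used here gives the strand setting of the counting.

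Of the receptors, Tgfbr2 passed a test between the lines and Tgfbr1 did not. Tgfbr2 (ENSMUSG00000032440, chromosome 9, 116084293 to 116175360, minus strand), the type II receptor that binds the ligand first, was at 198, 216 and 156 CPM in control and 169, 163 and 143 CPM in NG2|EDmut libraries in serum. These groups overlapped, and the log2 fold change of -0.26 (SE 0.13, adjusted p = 0.141) did not pass the test, although without control serum replicate 3, the lowest control library, it was -0.38 (adjusted p = 0.0303). Under starvation Tgfbr2 was at 271, 261 and 292 CPM in control and 169.9, 166 and 149 CPM in NG2|EDmut libraries. The starved control libraries were the highest 3 of all 12. The mean fell from 275 ± 15.8 to 162 ± 10.9 CPM (SD, n = 3), 1.70-fold (log2 fold change -0.77, SE 0.13, adjusted p = 0.000550).

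Tgfbr1 (ENSMUSG00000007613, chromosome 4, 47353222 to 47414931, plus strand), the type I receptor kinase, passed no test between the lines. It was at 41.1, 39.8 and 35.0 CPM in control and 49.1, 42.3 and 50.1 CPM in NG2|EDmut libraries in serum (log2 fold change 0.29, interval 0.02 to 0.56, adjusted p = 0.101), with no overlap between the groups. Under starvation the groups overlapped, at 33.5 to 44.7 CPM and 40.8 to 44.2 CPM (log2 fold change 0.10, interval -0.17 to 0.37, adjusted p = 0.562).

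Ltbp3 (ENSMUSG00000024940, chromosome 19, 5740904 to 5758532, plus strand) encodes an LTBP that forms complexes with latent TGF-β. In serum it was at 183, 235 and 202 CPM in control and 62.8, 56.2 and 68.3 CPM in NG2|EDmut libraries. The lowest control library thus lay far above the highest NG2|EDmut library. The mean fell from 207 ± 26.2 to 62.4 ± 6.03 CPM (SD, n = 3), 3.31-fold (log2 fold change -1.73, SE 0.15, adjusted p = 7.39e-06). Under starvation the levels were 326, 228 and 308 CPM in control and 66.3, 65.1 and 57.8 CPM in NG2|EDmut cells, a 4.55-fold fall (log2 fold change -2.19, SE 0.15, adjusted p = 8.49e-07). Both calls held under all 23 alternative settings.

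Ltbp4 (ENSMUSG00000040488, chromosome 7, 27305136 to 27337692, minus strand), an LTBP known for binding latent TGF-β1 and for elastic fibre assembly, went the opposite way. In serum it was at 55.1, 48.02 and 35.8 CPM in control and at 129, 122 and 120.3 CPM in NG2|EDmut libraries. The mean rose from 46.3 ± 9.74 to 124 ± 4.47 CPM (SD, n = 3), 2.67-fold (log2 fold change 1.42, SE 0.15, adjusted p = 3.70e-05). Under starvation the levels were 47.2, 39.3 and 53.0 CPM in control and 108, 107 and 112 CPM in NG2|EDmut cells, a 2.34-fold rise (log2 fold change 1.23, SE 0.15, adjusted p = 6.13e-05). No control library reached the lowest NG2|EDmut library in either condition, and both calls held under all 23 alternative settings.

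Ltbp2 (ENSMUSG00000002020, chromosome 12, 84783212 to 84876532, minus strand), an LTBP that does not bind latent TGF-β, was the lowest of the 10 genes. In serum it was at 13.5, 15.3 and 22.2 CPM in control and at 4.29, 5.35 and 2.05 CPM in NG2|EDmut libraries. The groups did not overlap, and it fell by 2.12 on the log2 scale (SE 0.59, adjusted p = 0.0169). This call was lost without NG2|EDmut serum replicate 1 (adjusted p = 0.05005) or replicate 3 (adjusted p = 0.0668). Under starvation the control libraries spread from 4.12 to 24.4 CPM and overlapped with NG2|EDmut libraries at 1.31 to 4.37 CPM. Here it fell by 2.36 on the log2 scale (SE 0.60, adjusted p = 0.00797).

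Ltbp1 (ENSMUSG00000001870, chromosome 17, 75005568 to 75392512, plus strand), the LTBP that joins latent TGF-β to fibrillin and fibronectin, passed no test between the lines. In serum it was at 265, 447 and 313 CPM in control and 307, 248 and 254 CPM in NG2|EDmut libraries. The overlap came from control replicate 1, without which the log2 fold change went from -0.34 (adjusted p = 0.196) to -0.49 (adjusted p = 0.0427). Under starvation the groups overlapped at 152 to 222 and 182 to 206 CPM (log2 fold change 0.04, interval -0.38 to 0.45, adjusted p = 0.895).

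Within the control line, serum starvation moved 5 of the 10 genes past the threshold, against 20.2% of all genes: 2 rose (9.45% of all genes) and 3 fell (10.8%). Groups were without overlap for 4 of 10, against 28%, and 1, Inhba, changed by 1 or more on the log2 scale, against 7.68%. Inhba fell from 153 ± 31.0 to 52.2 ± 2.98 CPM (SD, n = 3), a 2.93-fold fall (log2 fold change -1.55, SE 0.14, adjusted p = 8.32e-05) that ranked 21 by adjusted p among all genes tested. Tgfb3 fell by 0.70 (SE 0.12, adjusted p = 0.00240) and Ltbp1 fell by 0.84 on the log2 scale (SE 0.19, adjusted p = 0.00987). Tgfbr2 rose by 0.53 (SE 0.13, adjusted p = 0.0127) and Ltbp3 rose by 0.47 (SE 0.15, adjusted p = 0.0395). The Ltbp3 groups overlapped, and its call was lost in 19 of the 23 alternative settings: without any 1 of control serum replicates 1 and 3, control starved replicates 1 and 3 or the 6 NG2|EDmut libraries, its adjusted p was 0.0527 to 0.213. The Tgfbr2 call was lost without control starved replicate 3 (adjusted p = 0.0720), and when only the 2 groups were fitted both Tgfbr2 (0.118) and Ltbp1 (0.0774) missed the threshold. Tgfb1, Tgfb2, Tgfbr1, Ltbp2 and Ltbp4 did not pass, with log2 fold changes of -0.26 to 0.03.

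In the NG2|EDmut line, 2 genes passed, against 2.06% of all genes, and both fell (1.1% of all genes fell and 0.957% rose). Neither changed by 1 or more on the log2 scale (0.946% of all genes), while 5 of 10 had groups without overlap, against 33.2%. The share of 2.06% depended on the fit: it was 15.7% with only the 2 groups fitted and 7.54% without control serum-supplemented replicate 1. With only its 2 groups fitted, the control line had 4.56% of all genes called, in place of 20.2%. Tgfb2 fell from 59.3 ± 3.19 to 35.7 ± 2.99 CPM (SD, n = 3; log2 fold change -0.73, SE 0.14, adjusted p = 0.0167). Tgfb3 fell from 76.6 ± 7.69 to 49.5 ± 3.28 CPM (SD, n = 3; log2 fold change -0.63, SE 0.12, adjusted p = 0.0182). Each of these calls was lost when a single NG2|EDmut library was left out: for Tgfb2 the adjusted p became 0.0540 to 0.103 without any 1 of serum replicate 1, serum replicate 2 or the 3 starved replicates, and for Tgfb3 it became 0.0595 to 0.112 without any 1 of serum replicate 2, serum replicate 3 or the 3 starved replicates. No gene rose past the threshold in edgeR, none at an unadjusted p under 0.05 and none in DESeq2. Inhba was at 98.7 ± 5.47 CPM in serum and 102 ± 6.69 CPM under starvation (SD, n = 3), with a log2 fold change of 0.05 and a 95% interval of -0.24 to 0.34. The pair of starvation responses uses separate libraries for each line.

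**Figure D3:**
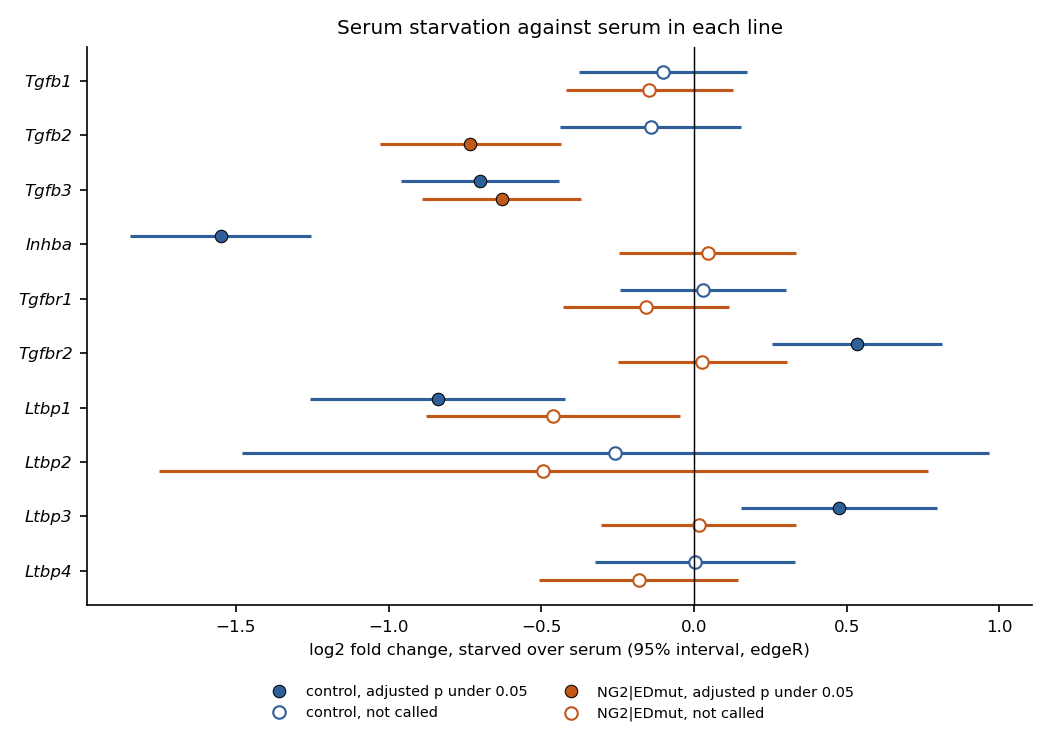
Log2 fold change of starved over serum-supplemented cells in the control line (blue) and the NG2|EDmut line (orange), with 95% intervals from edgeR, filled where the adjusted p is under 0.05. The intervals of the lines for Inhba are apart, at -1.85 to -1.25 in control and -0.24 to 0.34 in NG2|EDmut cells, and those for Tgfb3 lie over each other.

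The difference between the lines in their starvation response was tested as an interaction. Inhba passed, alone among the 10 genes, against 4.39% of all genes called (2.03% with a higher and 2.36% with a lower response in NG2|EDmut cells, and 2.99% by 1 or more on the log2 scale), with a response 1.60 higher in NG2|EDmut than in control cells on the log2 scale (SE 0.19, adjusted p = 0.000951, rank 45). It passed in each of the 22 alternative settings run, and without control serum replicate 1 the difference was 1.71 (adjusted p = 2.17e-05). For Tgfb2 the difference was -0.59 (SE 0.19, adjusted p = 0.113), and without control serum replicate 1 it was -0.73 and passed (adjusted p = 0.00639). That left-out library raised the share of all genes called from 4.39% to 20.2%. Tgfbr2 (-0.50, adjusted p = 0.149) and Ltbp3 (-0.46, adjusted p = 0.257) had the next largest differences by adjusted p, and for Tgfb3 it was 0.07 with a 95% interval of -0.30 to 0.44. No gene had a lower response past the threshold in edgeR or in DESeq2, and 3 did at an unadjusted p under 0.05.

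Per length of transcript, the make-up of the ligand pool differed between the lines. Tgfb3 was 69.8%, 79.0% and 75.4% of the summed FPKM of the 3 TGF-β isoforms in control cells in serum, and 41.7%, 42.8% and 46.3% in NG2|EDmut cells in serum. Under starvation it was 65.0% to 68.0% in control and 36.9% to 39.8% in NG2|EDmut cells, so that no control library overlapped with any NG2|EDmut library. Tgfb1 took 18.7% ± 3.45 of the sum in control and 36.6% ± 0.62 in NG2|EDmut cells in serum (SD, n = 3), and 24.8% ± 2.26 and 45.2% ± 2.34 under starvation. Tgfb2 took 6.59% ± 1.64 and 19.8% ± 1.93 in serum, and 8.54% ± 0.92 and 16.2% ± 1.56 under starvation. The summed FPKM itself was 78.1 ± 4.84 in control and 48.6 ± 2.14 in NG2|EDmut cells in serum, and 52.5 ± 2.20 and 35.9 ± 1.17 under starvation (SD, n = 3). These shares are ratios of the values tested above and are given as a description.

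The make-up of the LTBP pool differed as well. Ltbp3 was 33.6% to 37.3% of the summed FPKM of the 4 LTBP genes in control cells in serum and 12.3% to 15.0% in NG2|EDmut cells. Under starvation it was 51.9% to 56.6% and 15.5% to 17.0%. Ltbp4 was 9.26% to 15.5% in control and 35.5% to 38.5% in NG2|EDmut cells in serum, and 11.5% to 12.9% and 38.1% to 42.2% under starvation. Ltbp1 took similar shares in serum, 49.4% ± 4.69 in control and 48.7% ± 2.22 in NG2|EDmut cells, and took 30.4% ± 1.997 and 43.1% ± 1.45 under starvation (SD, n = 3). Ltbp2 took at most 6.16% of the sum in any library.

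**Figure D4:**
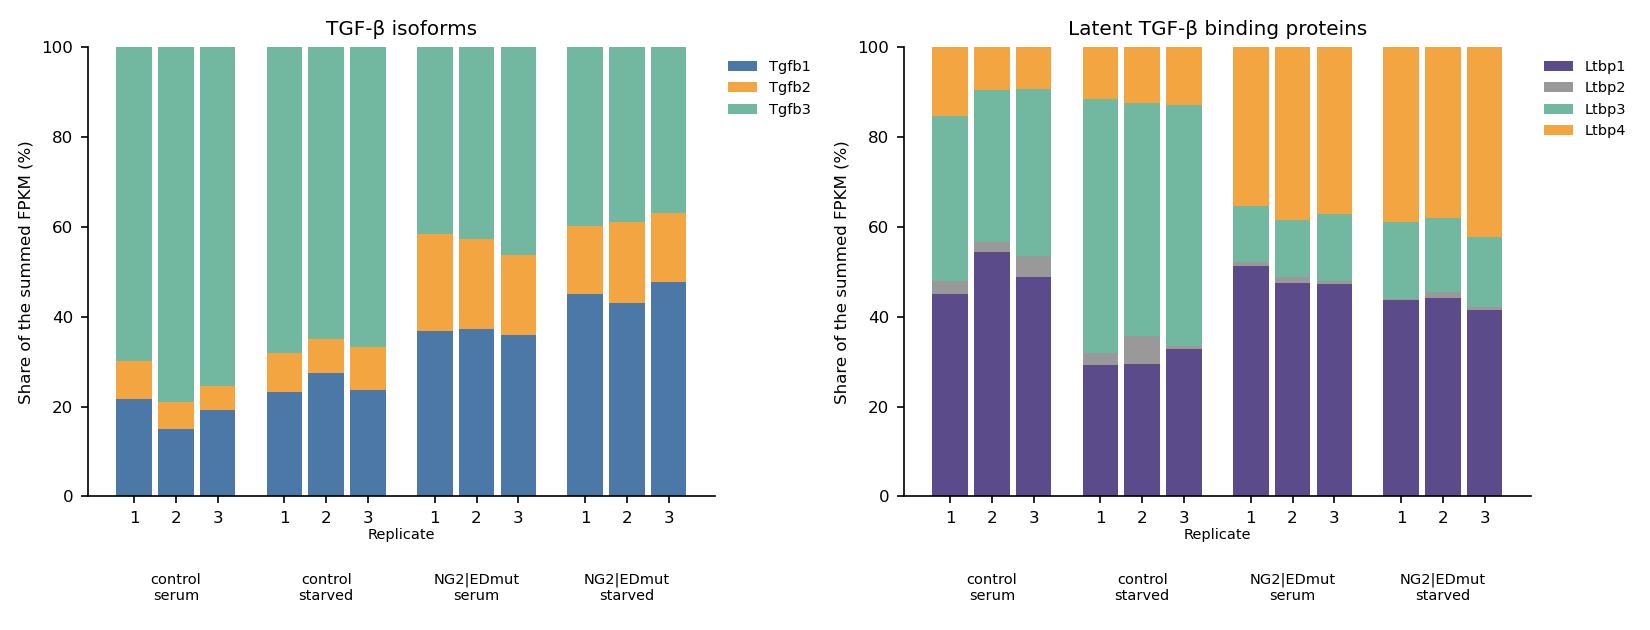
Share of each gene in the summed FPKM of the 3 TGF-β isoforms (left) and of the 4 LTBP genes (right), 1 bar per library. The Tgfb3 share is 65.0% to 79.0% in the 6 control libraries and 36.9% to 46.3% in the 6 NG2|EDmut libraries, and the Ltbp4 share is 9.26% to 15.5% and 35.5% to 42.2%.

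Ordered by mean FPKM, Tgfb3 led both control groups, at 58.5 ± 7.18 in serum and 35.0 ± 1.08 under starvation (SD, n = 3), above and apart from the next gene. In control cells in serum it was followed by Ltbp1, Inhba, Tgfbr2 and Ltbp3 (29.7 to 21.2 FPKM), whose libraries overlapped from each gene to the next. Tgfb1 (14.5 FPKM) stood apart below them, then Ltbp4, Tgfbr1 and Tgfb2 (6.67 to 5.10 FPKM) overlapped, and Ltbp2 was last (1.93 FPKM). In starved control cells Tgfb3 was followed by Tgfbr2 and Ltbp3 (30.3 and 28.7 FPKM), then by Ltbp1 and Tgfb1 (16.2 and 13.0 FPKM), and Inhba had moved down to the next set with Ltbp4, Tgfbr1 and Tgfb2 (7.37 to 4.49 FPKM). In NG2|EDmut cells in serum no gene led by itself: Ltbp1, Tgfb3, Tgfbr2, Ltbp4 and Tgfb1 (23.6 to 17.8 FPKM) overlapped from each to the next, Inhba (14.5) and Tgfb2 (9.60) each stood apart, and Tgfbr1 (6.77) overlapped with Ltbp3 (6.45). In starved NG2|EDmut cells Tgfbr2, Ltbp1, Tgfb1, Ltbp4, Inhba and Tgfb3 formed an overlapping run from 18.7 to 13.9 FPKM, and Ltbp3, Tgfbr1 and Tgfb2 another from 6.58 to 5.83 FPKM. Ltbp2 was last in every group.

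Beyond the 10 genes, most called genes for proteins that hold or release latent TGF-β were lower in NG2|EDmut cells. Of 21 latency and activation genes, 1 rose and 11 fell in serum (median log2 fold change -0.62, against -0.03 over all genes), and 12 fell and none rose under starvation (median -0.85, against -0.02), where also none rose at an unadjusted p under 0.05 or in DESeq2. In each condition 57.1% of the list was called, against 31.5% of all genes in serum and 38% under starvation. With each library left out in turn, 9 to 11 fell in serum and 11 to 13 under starvation, where 1 rose without control serum-supplemented replicate 1. Lrrc32, the gene of GARP, which holds latent TGF-β at the cell surface, had the largest fall of this list, from 33.3 ± 8.65 to 2.24 ± 0.20 CPM in serum (SD, n = 3; log2 fold change -3.90, SE 0.20, adjusted p = 2.88e-07) and from 56.5 ± 5.63 to 2.96 ± 0.35 CPM under starvation (-4.25, adjusted p = 7.75e-08). The integrin subunit Itgb8, which with αv releases TGF-β from its latent complex, was at 5.18 to 11.7 CPM in control and 1.05 to 1.82 CPM in NG2|EDmut cells in serum (-2.66, adjusted p = 7.54e-05) and fell by 3.62 under starvation (adjusted p = 6.00e-06). The protease gene Mmp2 fell by 1.52 in serum (adjusted p = 1.19e-05) and 1.83 under starvation (adjusted p = 1.76e-06), and Emilin1, whose product restrains proTGF-β processing, fell by 1.42 in serum (adjusted p = 1.34e-05). Itgb5, a partner of αv, fell by 1.38 under starvation (adjusted p = 2.69e-06) but was at -0.11 in serum (adjusted p = 0.505), and the interaction was -1.27 (adjusted p = 0.00131): in control cells starvation raised it from 447 ± 62.6 to 1087 ± 24.2 CPM (SD, n = 3), and in NG2|EDmut cells it was at 396 to 433 CPM in serum and 405 to 442 CPM under starvation. Thbs1, the gene of thrombospondin-1, an activator of latent TGF-β, fell with starvation in both lines, by 0.81 in control (adjusted p = 0.00212) and 1.92 in NG2|EDmut cells (adjusted p = 6.86e-05), and the responses differed (-1.10, adjusted p = 0.00763). Emilin1 rose with starvation in both lines, by 0.46 in control (adjusted p = 0.0273) and 0.93 in NG2|EDmut cells (adjusted p = 0.00381), and its interaction did not pass (0.47, adjusted p = 0.196).

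The activin axis held a second β subunit with a pattern of its own. Inhbb, the gene of the βB subunit, was at 6.36 to 8.16 CPM in control and 13.5 to 17.6 CPM in NG2|EDmut cells in serum (log2 fold change 1.08, adjusted p = 0.000355). Starvation brought it down to 5.24 to 6.33 CPM in NG2|EDmut cells (-1.44, SE 0.16, adjusted p = 0.000922), while starved control cells were at 6.23 to 7.51 CPM. Its interaction was -1.38 (SE 0.23, adjusted p = 0.00566), opposite in sign to the 1.60 of Inhba. Inha, the gene of the inhibin α subunit, fell by 1.95 in serum (adjusted p = 0.00145) and by 2.14 under starvation (adjusted p = 0.000487), at 8.72 CPM or less in every library. Gdf11, a ligand of activin receptors, fell by 0.85 in serum (adjusted p = 0.00295). Fst, the gene of the activin-binding protein follistatin, fell with starvation in both lines, by 1.08 in control (adjusted p = 0.00149) and 1.27 in NG2|EDmut cells (adjusted p = 0.00256), and its relative Fstl3 fell by 1.04 in control cells (adjusted p = 0.00599). Of the 8 genes of this list tested, 1 rose and 2 fell in serum and 1 fell under starvation (medians -0.57 and -0.56, against -0.03 and -0.02 over all genes). These medians rest in part on Lefty1, Wfikkn1 and Wfikkn2, at no more than 0.724, 1.54 and 0.338 CPM. None of these passed a test between the lines, and the serum median lies between Lefty1 (-0.58) and Wfikkn1 (-0.57). The called share of this short list was 37.5% in serum, against 31.5% of all genes, and 12.5% under starvation, against 38%. Without control serum-supplemented replicate 1, 2 fell under starvation. None rose under starvation in edgeR, in DESeq2 or at an unadjusted p under 0.05.

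Of 12 other receptors and co-receptors, 2 rose in serum and none fell (2 fell at an unadjusted p under 0.05 and none in DESeq2), and 1 rose and 4 fell under starvation. The called share was 16.7% in serum, below the 31.5% of all genes, and 41.7% under starvation, near the 38% of all genes. Eng, the co-receptor endoglin, rose by 0.31 in serum (adjusted p = 0.0368) and 0.48 under starvation (adjusted p = 0.00261). Acvr2b, a type II activin receptor, rose by 0.93 in serum (adjusted p = 0.0477) at no more than 1.83 CPM. Both calls in serum were close to the threshold. The count of 2 dropped to 0 when control serum-supplemented replicate 2 or 3, any 1 NG2|EDmut serum-supplemented library, or NG2|EDmut starved replicate 2 or 3 was left out, and the call of Acvr2b was also lost without control starved replicate 3 or NG2|EDmut starved replicate 1. The largest adjusted p was 0.114 for Eng and 0.142 for Acvr2b. In serum 1 gene fell without control serum-supplemented replicate 1 or 3. Tgfbr3, the co-receptor betaglycan, fell by 1.08 under starvation (adjusted p = 0.00118), as did the type I receptor genes Bmpr1a (by 0.61, adjusted p = 0.000361) and Acvrl1 (by 1.77, adjusted p = 0.00841, at most 1.36 CPM). In starved control cells Bmpr1a rose by 0.34 (adjusted p = 0.0252) and Acvr2a, another type II activin receptor, rose by 0.55 (adjusted p = 0.0291). The call of Bmpr1a in control cells was lost without control serum-supplemented replicate 3, control starved replicate 1 or 3, or NG2|EDmut serum-supplemented replicate 3 (adjusted p up to 0.157), and that of Acvr2a without control serum-supplemented or starved replicate 2 or 3 or NG2|EDmut serum-supplemented replicate 3 (up to 0.118). Of these 12 genes none passed in the starvation response of NG2|EDmut cells in edgeR or DESeq2, and 1 did at an unadjusted p under 0.05. Few genes of any kind passed there: 2.06% of all genes in edgeR and 3.03% in DESeq2.

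Among 11 SMAD transducers and their cofactors, 3 rose in each condition and none fell in edgeR, in DESeq2 or at an unadjusted p under 0.05. The called share was 27.3% in each condition, below the 31.5% and 38% of all genes. In serum the count of 3 that rose went to 1 without NG2|EDmut serum-supplemented replicate 1 and to 5 without control serum-supplemented replicate 1, where 1 gene fell. Under starvation it ranged from 2 to 6, at 5 without control serum-supplemented replicate 1 and 6 without NG2|EDmut serum-supplemented replicate 3. Usp4, a deubiquitinase of TGFBR1, rose by 0.71 in serum (adjusted p = 0.000177) and 0.66 under starvation (adjusted p = 0.000191). The coactivator gene Crebbp rose by 0.63 (adjusted p = 0.0114) and 0.51 (adjusted p = 0.0259), and Smad4, the common partner of the receptor SMADs, rose by 0.61 in serum (adjusted p = 0.0169). The call of Smad4 was lost without control serum-supplemented replicate 3 or NG2|EDmut serum-supplemented replicate 1 or 2 (adjusted p up to 0.0749). That of Crebbp was lost in serum without NG2|EDmut serum-supplemented replicate 1 (adjusted p = 0.0580) and under starvation without control starved replicate 2 or NG2|EDmut starved replicate 2 or 3 (up to 0.0922). Smad2 fell by 0.66 with starvation in control cells (adjusted p = 0.00352) and was 0.82 higher in NG2|EDmut than in control cells under starvation (adjusted p = 0.000225). Of 16 feedback and SMAD inhibitor genes, 8 rose and 2 fell in serum (median 0.48), and 3 rose and 4 fell under starvation (median 0.06), against medians of -0.03 and -0.02 over all genes. The called share was 62.5% in serum, against 31.5% of all genes, and 43.75% under starvation, against 38%. The 8 that rose in serum became 5 without control serum-supplemented replicate 3 or NG2|EDmut serum-supplemented replicate 1 or 2, and the 2 that fell ranged from 1 to 3 over the libraries left out. Without control serum-supplemented replicate 1, the interaction was called above 0 for 3 of the 16 genes and below 0 for 5. These took the place of 1 and 0, while the share of all genes with a called interaction went from 4.39% to 20.2%. Smad7, the inhibitory SMAD that TGF-β itself induces, went from 19.5 ± 5.34 to 53.1 ± 4.06 CPM in serum (SD, n = 3; log2 fold change 1.44, adjusted p = 7.12e-05) and rose by 1.06 under starvation (adjusted p = 0.000417). Bambi, a pseudoreceptor that blocks the type I receptor, rose by 0.90 in serum (adjusted p = 0.00301) and 2.66 under starvation (adjusted p = 1.19e-06). Starvation lowered it by 1.42 in control cells (adjusted p = 0.000665), and its interaction was 1.76 (adjusted p = 0.00343). Smad6 rose by 0.78 in serum (adjusted p = 0.00111) and fell by 1.05 with starvation in NG2|EDmut cells (adjusted p = 0.00252), where the ubiquitin ligase gene Smurf2 fell by 0.90 (adjusted p = 0.00766, but 0.0530 without NG2|EDmut starved replicate 3). The corepressor gene Tgif2 rose by 1.44 under starvation (adjusted p = 0.000162) and fell by 0.99 with starvation in control cells (adjusted p = 0.00589). The coregulator gene Tgfb1i1 fell by 1.01 in serum (adjusted p = 0.000633), and the ubiquitin ligase gene Nedd4l fell by 0.75 under starvation (adjusted p = 0.000482).

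Of 28 genes known to respond to TGF-β in mesenchymal cells, 8 rose and 9 fell in serum (median 0.01), and 6 rose and 11 fell under starvation (median -0.18), so the list did not move one way. In each condition 60.7% of the list was called, against 31.5% of all genes in serum and 38% under starvation. Over the libraries left out, 6 to 9 rose and 7 to 11 fell in serum, and 6 to 8 rose and 11 or 12 fell under starvation. Postn, the gene of the matrix protein periostin, fell from 4148 ± 656 to 329 ± 114 CPM in serum (SD, n = 3; log2 fold change -3.66, adjusted p = 9.99e-07) and by 3.51 under starvation (adjusted p = 6.09e-07). Col3a1, the gene of type III collagen, fell by 2.18 in serum (adjusted p = 5.80e-05), and under starvation Timp1, a protease inhibitor gene, fell by 2.34 (adjusted p = 1.49e-06) and the oxidase gene Nox4 fell by 2.62 (adjusted p = 1.08e-05). In the other direction, the collagen crosslinking enzyme gene Lox rose by 1.26 in serum (adjusted p = 6.58e-05), and Cdkn1a, a cell cycle inhibitor gene, rose by 1.02 in serum (adjusted p = 9.26e-05) and 1.16 under starvation (adjusted p = 2.35e-05). With starvation the matricellular gene Ccn2 (connective tissue growth factor) fell by 1.27 in control cells (adjusted p = 0.000552) and by 2.56 in NG2|EDmut cells (adjusted p = 3.61e-05). Its relative Ccn1 fell by 1.82 in NG2|EDmut cells (adjusted p = 0.00282), and Pdgfa, a platelet-derived growth factor gene, fell by 2.46 in control cells (adjusted p = 0.00123). The responses of 4 of the 28 genes differed between the lines, with an interaction of 2.57 for Pdgfa (adjusted p = 0.0145), -1.29 for Ccn2 (adjusted p = 0.00853), -1.53 for Ccn1 (adjusted p = 0.0266) and -2.15 for Timp1 (adjusted p = 0.000698). Of all genes 4.39% had a called interaction. Without control serum-supplemented replicate 1, the interaction was called above 0 for 6 of the 28 genes and below 0 for 9. These took the place of 1 and 3, while the share of all genes with a called interaction was 20.2%. Over all libraries DESeq2 called 5 and 7 of the 28, against 5.48% of all genes in that fit. Many of these genes respond to other signals too.

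**Figure D5:**
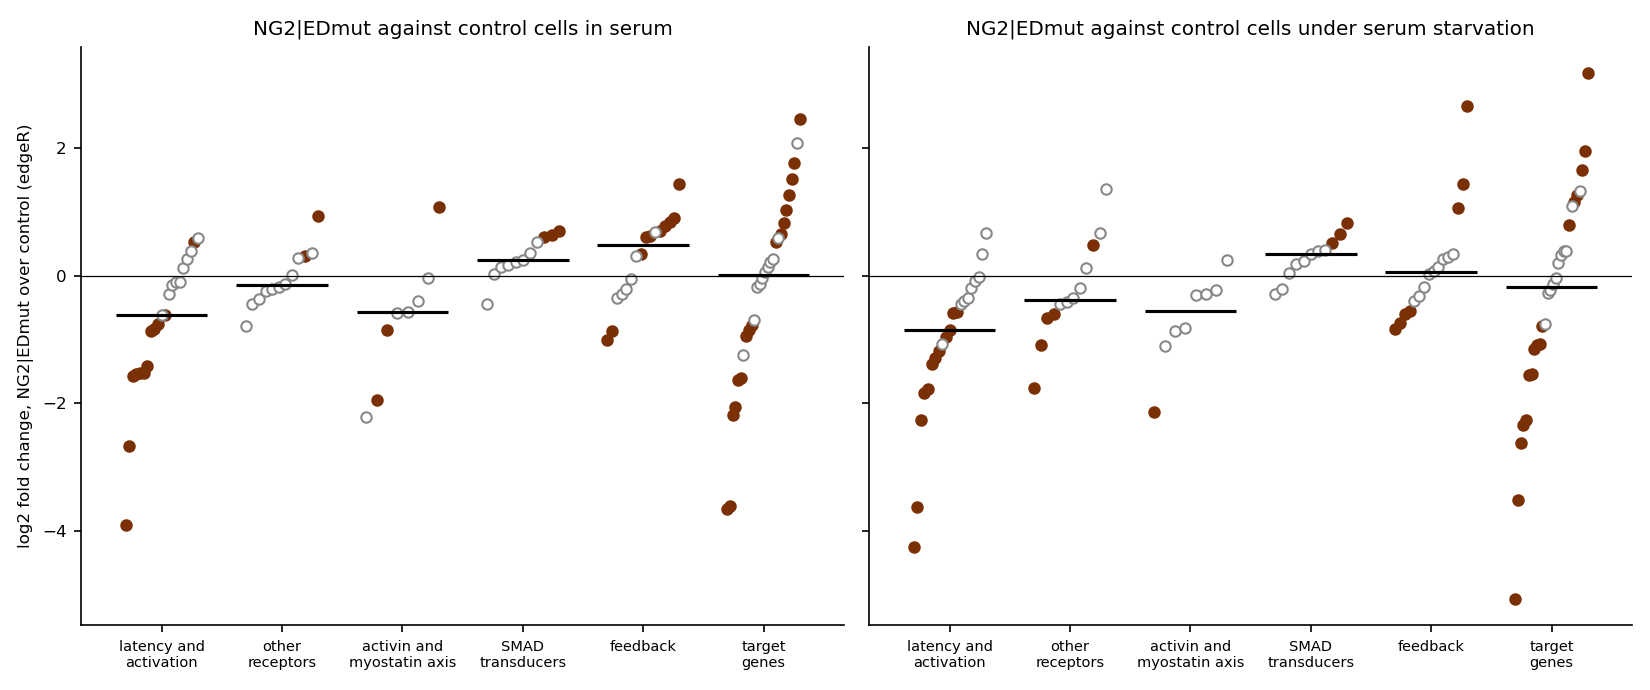
Log2 fold change of NG2|EDmut over control cells for the tested genes of 6 lists around the pathway, in serum (left) and under starvation (right). Each circle is 1 gene, filled where the edgeR adjusted p is under 0.05, and the bar is the median of the list; the latency and activation list lies lowest, at medians of -0.62 and -0.85.

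The genes whose pattern over the 12 libraries was most like that of a member were found as the smallest mean absolute difference in log2 CPM, after each gene was centred on its own mean, among 10882 genes. For Ltbp4 they were Foxj3 (0.07), a forkhead factor gene, and Ecpas (0.09), a proteasome adaptor gene. For Ltbp3 they were Osbpl6 (0.08), an oxysterol binding protein-like gene, and Magee1 (0.11), and for Tgfb3 they were Fhl2 (0.16), a LIM domain gene, and Snx25 (0.18), a sorting nexin gene. For Inhba they were Dysf (0.16), the gene of dysferlin, and Mthfd1 (0.16), a folate enzyme gene. Dysf was at 97.8 CPM in control cells in serum, 35.1 CPM in starved control cells, and 72.2 and 71.98 CPM in NG2|EDmut cells in serum and under starvation. The noisier Ltbp2 had no close match: Igfbp2 and Tmem86a differed from it by 0.52 and 0.55.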

How the data were processed

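Poly(A) RNA was sequenced as TruSeq Stranded paired-end libraries on a NovaSeq. HISAT2, StringTie, gffcompare and edgeR are named in the methods, and the submitters' processing notes add FastQC; versions, build, annotation release and read length were not given in the sources used here. Whole-number estimated counts made from StringTie coverage, whose unit is not 1 read, and FPKM values from the same coverage were deposited by the authors. Rounding changed no estimated count.

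Estimated counts were fitted with edgeR 4.0.16 in R 4.3.3 (filterByExpr, TMM, quasi-likelihood, 1 mean per group over 12 libraries, 8 residual degrees of freedom), with Benjamini-Hochberg adjustment over 18703 genes and a threshold of 0.05. Scripts were tested on simulated data. The depth (60277881 to 77172479 estimated counts) sets precision together with the spread between replicates.

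The 10 members, the lists, the naming rule and the tests were chosen with earlier results of these data known. The text names all 10 members, from each list the called genes of lowest adjusted p (up to 4 per line comparison, up to 2 per starvation response), and 2 nearest genes in pattern per member called with a change of 1 or more on the log2 scale; interaction values are added for named list genes that passed that test. Ctgf was matched to Ccn2 by its RefSeq synonym. Marker lists are given as levels. Alternatives were DESeq2 1.42.0, RLE factors, other filters, a fold threshold, fewer groups, a replicate block, limma-trend (3.58.1) on log2(FPKM + 1) or log2(FPKM + 0.1), estimated counts divided by 4, and leaving out each library. A result on 1 other gene is not reported here.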

Additional observations from a re-analysis of the deposited data

Results flagged for a closer look

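Inhba had a starvation response that differed between the lines by the interaction test. The response in NG2|EDmut cells minus that in control cells was 1.60 on the log2 scale (SE 0.19, adjusted p = 0.000951, edgeR). Inhba was lower in 3 of 3 starved control libraries than in any serum-supplemented control library, and the NG2|EDmut groups overlapped.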

How the results depend on the processing

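Over the 10 genes, 5 comparisons and 22 or 23 alternative settings, 1083 results kept their side of the threshold. Another 44 lost the call and 13 gained one. No result that was called in either fit changed direction. Some results near 0 that were called in neither fit changed sign, such as Ltbp1 between the lines under starvation (log2 fold change -0.09 to 0.20 over the settings). In edgeR's fit of all 12 libraries the count of genes called was 6 in both line comparisons. Apart from the fold threshold and the fits with 1 library left out, the settings gave 6 in serum and 5 to 8 under starvation. Asking also for a change of 1 or more on the log2 scale left 4 in serum, 4 under starvation, 1 in the starvation response of control cells and 0 in that of NG2|EDmut cells, which follows from the threshold itself. Leaving out 1 library gave 5 to 7 called genes in serum, 6 to 7 under starvation, 3 to 5 for starvation in control cells, 0 to 2 for starvation in NG2|EDmut cells and 1 to 2 for the interaction. With only the groups compared in the fit, 2 genes were called for starvation in control cells and 3 (Ltbp1 added) in NG2|EDmut cells. The share of all genes called went from 20.2% to 4.56% in control cells and from 2.06% to 15.7% in NG2|EDmut cells. The cause was not tested. Ltbp2 under starvation missed the threshold in limma-trend on log2(FPKM + 1) without a filter (adjusted p = 0.0568). Tgfb1 under starvation passed in both filtered limma-trend fits (adjusted p = 0.0416 and 0.0417). Tgfb2 under starvation also passed with the filter of at least 10 estimated counts in every library (0.0457), with only the groups compared (0.0413), in limma-trend on log2(FPKM + 0.1) (0.0475) and with estimated counts divided by 4 (0.0418).

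Same-numbered replicates did not deviate together (correlations from -0.13 to 0.09, none over 0.1), so the numbers were not taken as pairs. With the replicate block 6 genes were called in serum, 6 under starvation, 4 for starvation in control cells (Ltbp3 lost, adjusted p = 0.0750), 2 in NG2|EDmut cells and 1 for the interaction. Levels near 1 CPM, such as Ltbp2 in NG2|EDmut cells, limit how closely a fold change can be given.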
